A study of Mus musculus with 14 samples.

Results

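The cyclin-dependent kinase (CDK) inhibitors are the genes described here, chosen by name as the 3 Cip/Kip members Cdkn1a, Cdkn1b and Cdkn1c and the 4 Ink4 members Cdkn2a, Cdkn2b, Cdkn2c and Cdkn2d. These 7 genes were found among the 35976 gene symbols counted in RNA-seq libraries of supporting cells (SCs) from the mouse cochlea. SCs carrying EGFP were sorted from cochleae of Lfng-EGFP mice, a line of B6 and FVB origin in which Lfng regulatory sequence on a bacterial artificial chromosome drives the reporter. Before sorting, the cochleae were cultured for 24 h with 2 µM compound E (CompE), a γ-secretase inhibitor that blocks Notch signalling, or with an equal volume of DMSO. Cochleae came from newborn (P0) or P6 animals, and the protocol gives the younger stage as P0 or P1. There were 4 CompE and 4 DMSO libraries at P0 and 3 of each at P6, every one made from several pooled cochleae and all carrying the same transgene.

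CDK inhibitors hold cells in G1 or out of the cell cycle. Ink4 proteins bind the D-type cyclin kinases Cdk4 and Cdk6 and keep them from pairing with their cyclins, whereas Cip/Kip proteins bind assembled cyclin and kinase complexes, including those of Cdk2. In the cochlea, Cdkn1b (p27Kip1) is known for the withdrawal of the sensory progenitors from the cycle and for keeping SCs quiescent, and Cdkn2d (p19Ink4d) and Cdkn1a (p21Cip1) for keeping hair cells (HCs) postmitotic. Lateral inhibition by Notch keeps SCs from becoming HCs, and the loss of Notch signalling in newborn cochleae turns part of them towards the HC fate.

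The libraries held 19415066 to 44430063 counts on genes, and levels are given as RPM, the count of a gene scaled to a total of 1000000 on genes. Notch targets, read as a check of the treatment, fell in CompE at P0. Hes1 went from 115.6 ± 28.3 RPM in DMSO to 18.1 ± 5.48 RPM in CompE (SD, n = 4 each), Hes5 from 690.5 ± 210.2 to 21.1 ± 29.7 and Heyl from 343.5 ± 84.2 to 34.2 ± 17.2. At P6, Hes1 was 42.4 ± 15.4 RPM in DMSO and 11.3 ± 1.21 RPM in CompE (n = 3 each, log2 fold change -1.90 with an adjusted p of 1.00 in edgeR). Hes5 went from 12.4 ± 9.40 to 0.653 ± 0.303 RPM at P6 (log2 fold change -4.27). Heyl went from 237.3 ± 106.7 to 76.9 ± 36.0 RPM (log2 fold change -1.61). All 6 Notch targets tested were lower in CompE at P6, with a median log2 fold change of -1.73, and edgeR called none. A high adjusted p at P6 thus does not show that a gene was unchanged. SC markers were abundant in every library, with sums over 11 genes of 2830 to 12260 RPM. The sums of 10 HC markers reached 668.8 to 1532 RPM in DMSO and 1305 to 2334 RPM in CompE at P0. In the P0 DMSO library of replicate 1 the SC sum was 6895 RPM against 10880 to 12260 RPM in the other 3, and in both P6 libraries of replicate 3 (batch 6) the 8 mesenchyme markers, led by Lum, summed to 3384 and 4083 RPM against 897.2 to 2467 RPM in the other 4. Schwann cell, neuron, endothelium and erythroid markers each summed to at most 135.0 RPM in any library, with Neurod1 at 0 at P6. Results that rest on the libraries standing apart are given with and without them. Fewer cells of a type and less RNA per cell cannot be told apart in such bulk libraries.

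By the GENCODE M21 annotation of GRCm38, the Cip/Kip genes lie apart, Cdkn1a at chr17:29090976-29100727 and Cdkn1b at chr6:134920401-134925513 on the plus strand and Cdkn1c at chr7:143458339-143461050 on the minus strand. The Ink4 genes are all on the minus strand. Cdkn2a (chr4:89274471-89294653) and Cdkn2b (chr4:89306299-89311039) are neighbours, Cdkn2c is farther along the same chromosome (chr4:109660876-109667189), and Cdkn2d is at chr9:21288410-21291407. Exons of Cdkn1a overlap the antisense transcript AC167363.2 and Cdkn1c overlaps Gm44732 on the other strand, and since use of strand in counting is not given, reads of these partners cannot be told apart.

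Levels of different genes were compared per kilobase of exon. In P0 DMSO libraries, Cdkn1c (p57Kip2) stood at 78.7 ± 28.5 RPM per kilobase, Cdkn1a at 61.4 ± 17.4, Cdkn2d at 40.3 ± 9.36 and Cdkn1b at 12.9 ± 1.03 (n = 4). Below these, Cdkn2b (p15Ink4b) was at 1.57 ± 0.730 RPM per kilobase and Cdkn2c (p18Ink4c) at 0.112 ± 0.0784, and Cdkn2a was at 0. Cdkn1c was above Cdkn1a in 3 of the 4 libraries, their ranges overlapped, and with the longest transcript in place of the union of exons as the length the mean of Cdkn1a was 104.8 RPM per kilobase, so the order of this pair depends on the annotation. Per union of exons, the ranges of Cdkn1a and Cdkn2d also overlapped, although Cdkn1a was the higher in all 4 libraries. With the longest transcript as the length they were apart, at 76.8 to 146.6 for Cdkn1a and 29.8 to 54.1 for Cdkn2d. Cdkn2d, Cdkn1b, Cdkn2b and Cdkn2c followed each other without overlap per union of exons.

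At P6, Cdkn1a led in all P6 libraries, with 113.0 ± 10.9 RPM per kilobase in DMSO and 142.1 ± 12.0 in CompE (n = 3 each). Cdkn2d came next with 38.0 ± 3.47 in DMSO, without overlap with Cdkn1a, and Cdkn1c was down to 13.9 ± 4.598, a range shared with Cdkn1b at 12.5 ± 3.17. Within the summed per-kilobase level of the 7 genes, Cdkn1a made up 31.8% ± 7.09 in P0 DMSO, 44.1% ± 1.92 in P0 CompE, 63.0% ± 5.22 in P6 DMSO and 66.9% ± 4.87 in P6 CompE libraries. The share of Cdkn1c was 39.9% ± 7.62 and 37.1% ± 3.93 at P0 and 7.77% ± 2.59 and 10.8% ± 5.63 at P6, in DMSO and CompE. These shares rest on the union of exons as the length and depend on that choice.

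**Figure D1:**
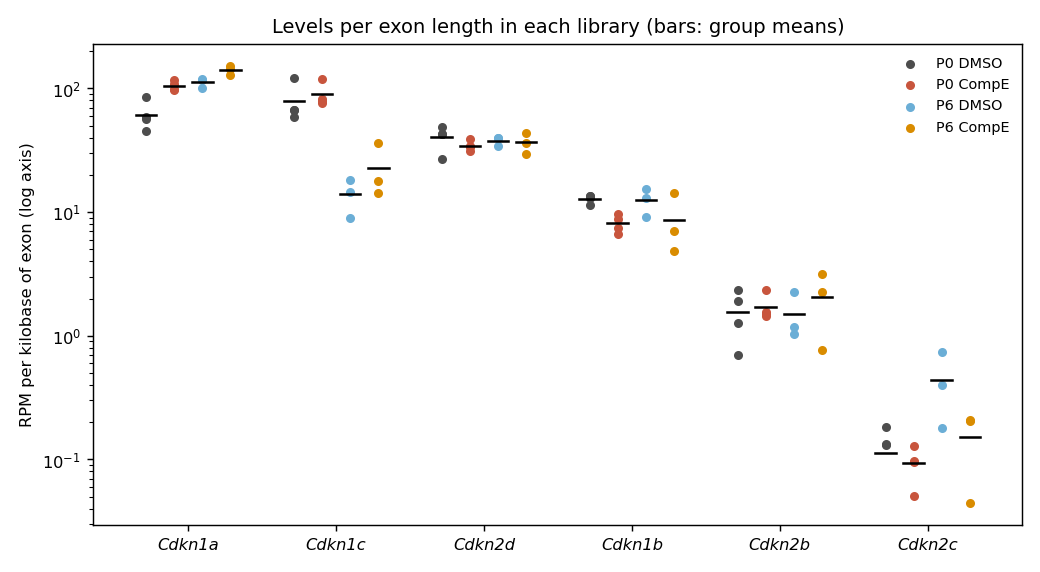
RPM per kilobase of exon on a log axis for the 6 inhibitors with counts, with a point for each library, a bar for each group mean and colours for the 4 groups. Cdkn1a, Cdkn1c at P0 and Cdkn2d lie at or above 27.0 RPM per kilobase, Cdkn2c reaches at most 0.746, and 1 P0 DMSO library without Cdkn2c counts is not drawn.

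Cdkn2a encodes p16Ink4a and, from another reading frame, the p53 activator Arf. It had 0 counts in all 14 libraries, which together held 432373713 counts. A count of 0 allows up to 3 counts in each library, or 0.0675 to 0.155 RPM by depth, for counting error only. The neighbouring Ink4 gene Cdkn2b was present in every library with 27 to 130 counts. Of all gene symbols, 25.3% likewise had no count in any library, and Cdkn2a entered no test.

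The first comparison asked which inhibitors respond to the block of Notch signalling in newborn SCs. At P0, Cdkn1a stood 71.4% above its DMSO mean in CompE and Cdkn1b fell by 36.8%, and no other inhibitor had separate groups. The thresholds of the study's methods were used for calls, an adjusted p up to 0.01 together with a change of 2-fold or more. By this rule edgeR's quasi-likelihood test called 195 of 15937 genes, or 1.22%, and none of the 6 inhibitors tested. With a looser limit, an adjusted p up to 0.05 and any fold, 3.87% of genes and 1 inhibitor, Cdkn1b, passed. With the replicate number as a block, 7.5% of genes and 2 inhibitors, Cdkn1a and Cdkn1b, passed that limit. Same-numbered libraries share the batch of the labels, but at P0 replicates 3 and 4 share batch 3, so the labels alone do not pair these.

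Cdkn1a, the p53 target whose product stops cells in G1, was measured at 199.9, 159.7, 305.0 and 207.6 RPM in the DMSO libraries of replicates 1 to 4 at P0. The CompE libraries held 353.8, 342.4, 384.5 and 414.1 RPM. Each CompE library was above every DMSO library, the nearest pair being replicate 3, whose DMSO library was the highest of its group. The log2 ratio of RPM + 0.5 within pairs ran from 0.33 to 1.098 and was positive in 4 of 4 pairs. The fitted log2 fold change was 0.74 ± 0.19 (SE) with an adjusted p of 0.0731, and 0.78 ± 0.14 with an adjusted p of 0.0128 with the replicate block. Without the P0 DMSO library of replicate 3 it was 0.96 with an adjusted p of 0.00753, and without each of the other 7 libraries the adjusted p was above 0.05, up to 0.218.

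Cdkn1b, the inhibitor best known from quiescent SCs, moved the other way. Its DMSO libraries held 58.8, 61.8, 61.7 and 51.8 RPM and its CompE libraries 33.8, 43.9, 39.7 and 30.5 RPM. All CompE libraries lay below all DMSO libraries, and within pairs the log2 ratio ran from -0.79 to -0.49. The fitted log2 fold change was -0.70 ± 0.15 with an adjusted p of 0.0282 in edgeR, and -0.71 ± 0.10 with an adjusted p of 0.00349 with the replicate block. DESeq2, the tool of the study, gave -0.70 with an adjusted p of 0.00141. Leaving out 1 library took the adjusted p of Cdkn1b past 0.05 for 6 of the 8 libraries, to at most 0.103, and it stayed at 0.0197 without the CompE library of replicate 2 and at 0.0330 without the DMSO library of replicate 1. With all 14 libraries in one fit, the log2 fold change was -0.71 and the adjusted p was 0.348.

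The start regions of these 2 genes are shown because their CompE libraries lay on opposite sides of the DMSO libraries at P0. The stretches are the 250 bases before the RefSeq start on GRCm38.p6, both on the plus strand, with capitals for matches to TGGGAA, the core bound by the Notch partner RBPJ, or to CACNAG, the N box bound by Hes repressors. Cdkn1a has a further start upstream, whose region (chr17:29090729-29090978) held no match to any motif searched, and the stretch shown lies within the gene, over an exon of the antisense transcript AC167363.2.
Cdkn1a, chr17:29093519-29093768: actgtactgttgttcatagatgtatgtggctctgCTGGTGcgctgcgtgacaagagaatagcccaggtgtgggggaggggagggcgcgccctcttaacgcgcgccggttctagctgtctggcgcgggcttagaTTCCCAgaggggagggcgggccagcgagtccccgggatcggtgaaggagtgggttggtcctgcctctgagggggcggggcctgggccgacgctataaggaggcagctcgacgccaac
Cdkn1b, chr6:134920151-134920400: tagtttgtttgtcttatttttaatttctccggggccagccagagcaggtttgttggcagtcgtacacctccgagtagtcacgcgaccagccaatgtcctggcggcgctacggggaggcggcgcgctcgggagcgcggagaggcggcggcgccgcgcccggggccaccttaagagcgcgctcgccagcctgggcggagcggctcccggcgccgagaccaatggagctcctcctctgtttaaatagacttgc

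In the Cdkn1a stretch, TGGGAA was matched on the reverse strand from 117 bases before the start and CACNAG on the reverse strand from 216 bases before it. Motifs were searched on both strands. The Cdkn1b stretch held no match to these, to CACGTG (the E box bound by Hes and Hey proteins) or to CAGCTG (an E box bound by Atoh1). Over the 9 start regions listed for 6 of the inhibitors, 3 held TGGGAA (Cdkn1a, Cdkn2a and Cdkn2d), 2 held CACNAG (Cdkn1a and Cdkn2d) and 0 held CACGTG or CAGCTG. Cdkn1c was not matched. Among all 32851 listed regions of this length, on both strands, TGGGAA occurred in 21.6%, CACNAG in 36.7%, CACGTG in 6.02% and CAGCTG in 13.0%. The stretches of Cdkn2d, Cdkn2b, Cdkn2c, the upstream Cdkn1a start and the Cdkn2a start with TGGGAA overlap annotated exons of their own genes. These are letter matches and no measure of binding.

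The other inhibitors did not separate at P0. Cdkn1c, the third Cip/Kip member, held 246.5, 119.6, 137.7 and 137.6 RPM in DMSO and 162.4, 155.3, 167.9 and 244.6 RPM in CompE. The highest library of each group stood apart from its other 3, the DMSO library of replicate 1, which also had the low SC sum, and the CompE library of replicate 4. The groups overlapped through that DMSO library, since the other 3 DMSO libraries reached 137.7 RPM at most and the CompE libraries began at 155.3 RPM. Its log2 fold change was 0.17 ± 0.22 with an adjusted p of 0.852, 0.40 without the DMSO library of replicate 1 (adjusted p of 0.299) and -0.01 without the CompE library of replicate 4 (adjusted p of 0.996). Cdkn2d, the most abundant Ink4 gene, held 77.0, 42.5, 66.8 and 67.5 RPM in DMSO and 61.0, 52.9, 49.1 and 53.8 RPM in CompE, lower in 3 of 4 pairs, with a log2 fold change of -0.26 ± 0.15 and an adjusted p of 0.543. Cdkn2b, which TGF-β is known to induce, ranged from 0.976 to 3.29 RPM in DMSO and from 2.02 to 3.27 RPM in CompE (log2 fold change 0.11 ± 0.38). Cdkn2c was counted 0 to 14 times per library, and no difference was detectable at this depth (log2 fold change -0.29 ± 0.77).

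RPM ranges of the CompE and DMSO groups did not overlap for 2 of the 6 inhibitors at P0 and for 9.88% of all genes tested. All pairs pointed one way for the same 2 inhibitors and for 29.1% of genes. Values of HC, SC and mesenchyme markers differed with the treatment too. Of the 10 HC markers 9 were higher in CompE, among them Atoh1 with a log2 fold change of 1.84 (adjusted p of 0.0563), and 0 passed an adjusted p of 0.05 without the block and 4 with it. Mesenchyme markers summed to 1216 to 1360 RPM in CompE and 936.2 to 1158 RPM in DMSO without overlap. Of these 8 markers 1 was higher, Lum at a log2 fold change of 0.44 (adjusted p of 0.109, and 0.0413 with the replicate block), and 7 were lower, with 0 passing without the block. Of the 11 SC markers, 5 passed that limit as lower and 4 had positive values. Lfng itself, which the study also lists as a Notch target, was at a log2 fold change of -1.67. The part of these shifts in the values of Cdkn1a and Cdkn1b was not tested.

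**Figure D2:**
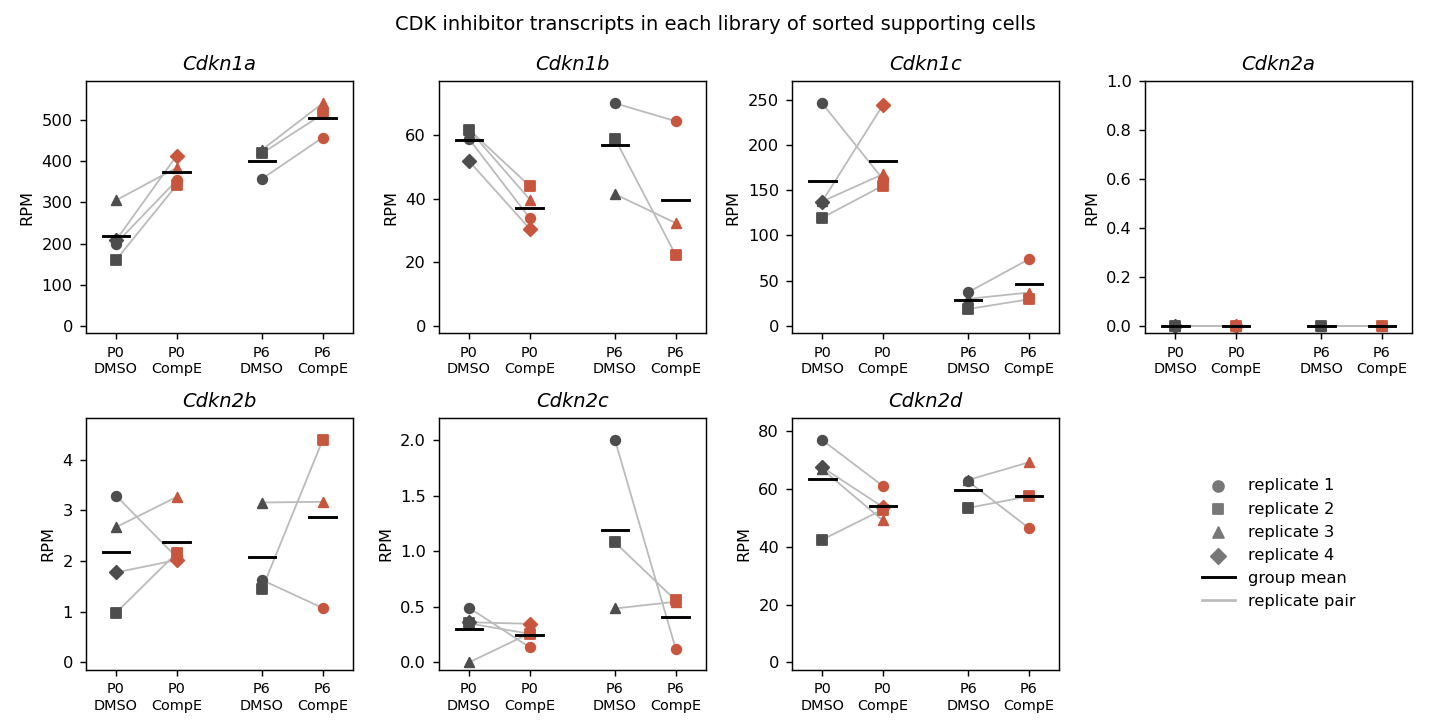
RPM of each of the 7 inhibitors in each of the 14 libraries, with DMSO in grey and CompE in red, marker shapes for replicate numbers, grey lines between libraries of the same number and black bars for group means. The lines of Cdkn1a all go up and those of Cdkn1b all go down from DMSO to CompE at both ages, the CompE and DMSO groups are apart for Cdkn1a at both ages and for Cdkn1b at P0, and Cdkn2a is at 0 throughout.

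At P6 the same comparison called no gene. edgeR called 0 of 15322 genes at the study's thresholds (0.0%) and 0 at an adjusted p of 0.05 (0.0%), 289 genes had an unadjusted p under 0.05, and DESeq2 called 13 genes, none of them an inhibitor. Cdkn1a held 357.2, 419.3 and 427.9 RPM in DMSO and 457.9, 514.9 and 541.3 RPM in CompE. The groups did not overlap, which held for 1 of the 6 inhibitors and for 7.19% of genes. Within pairs the log2 ratio was 0.30 to 0.36, and the fitted log2 fold change was 0.34 ± 0.15 with an adjusted p of 1.00. With the replicate block it was 0.34 ± 0.08 with an adjusted p of 0.470.

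Cdkn1b was lower in CompE in each P6 pair, by little in replicate 1 (70.0 RPM in DMSO and 64.4 RPM in CompE) and by more in replicate 2 (58.9 and 22.2 RPM) and replicate 3 (41.4 and 32.3 RPM). Its groups overlapped, and the log2 fold change of -0.52 ± 0.40 came with an adjusted p of 1.00. It was -1.06 without the CompE library of replicate 1 and -0.25 without that of replicate 2, the lowest and highest values with 1 library left out. Cdkn1c was higher in each pair, at 37.0, 18.4 and 29.8 RPM in DMSO and 73.7, 29.3 and 36.8 RPM in CompE for replicates 1 to 3. The groups overlapped here as well, and the replicate 1 libraries were the highest of both. Its log2 fold change was 0.73 ± 0.39, or 0.67 ± 0.16 with an adjusted p of 0.520 with the replicate block. With 1 library left out it ran from 0.24, without the CompE library of replicate 1, to 0.97. All pairs pointed one way for 3 of the 6 inhibitors at P6, Cdkn1a, Cdkn1b and Cdkn1c, and for 32.9% of genes.

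The Ink4 genes showed no common direction at P6. Cdkn2d held 62.7, 53.4 and 63.1 RPM in DMSO and 46.5, 57.5 and 69.2 RPM in CompE, a log2 fold change of -0.04 ± 0.18. Cdkn2b ranged from 1.44 to 3.16 RPM in DMSO and from 1.07 to 4.39 RPM in CompE. Cdkn2c was counted 48, 30 and 20 times in the DMSO libraries of replicates 1 to 3 and 3, 16 and 15 times in CompE, with a log2 fold change of -1.52 ± 0.94. Without both libraries of replicate 3, which had the highest mesenchyme sums, the log2 fold changes at P6 were 0.34 for Cdkn1a, -0.58 for Cdkn1b and 0.90 for Cdkn1c, and 0 inhibitors were called. In all P6 libraries, HC markers summed to 453.8 to 1083 RPM in DMSO and 570.8 to 1222 RPM in CompE, SC markers to 3995 to 7948 RPM and 2830 to 5374 RPM, and no marker of either list passed an adjusted p of 0.05. Macrophage markers, led by Cd68, summed to 4.03 to 35.1 RPM in DMSO and 12.9 to 89.0 RPM in CompE, higher in CompE in each pair, with all 4 tested positive and 0 passing. The part of these markers in the values was not tested.

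Whether the responses differed between the ages was tested as an interaction over all 14 libraries. It called 0 of 17090 genes at the study's thresholds (0.0%), with 811 genes at an unadjusted p under 0.05 and 33 called by DESeq2, and 2 genes or 0.0117% at an adjusted p of 0.05. No inhibitor was among those of either tool. The difference of log2 fold changes, P6 minus P0, was -0.38 ± 0.27 for Cdkn1a, 0.19 ± 0.41 for Cdkn1b and 0.57 ± 0.45 for Cdkn1c, each with an adjusted p of 1.00. A smaller response of an inhibitor at P6 than at P0 was thus not shown.

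**Figure D3:**
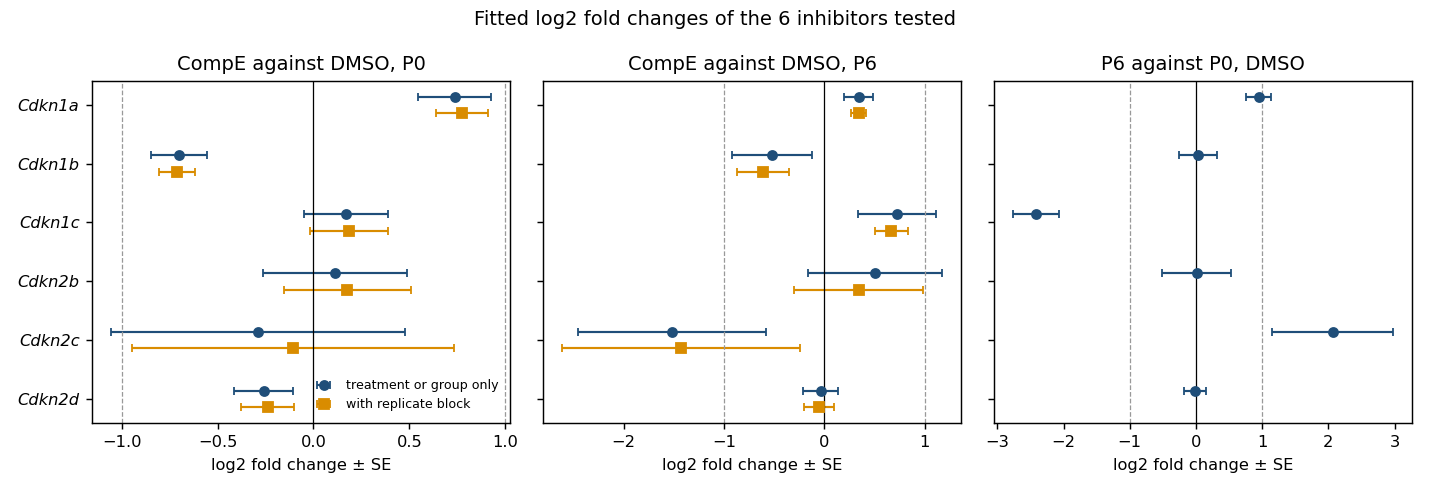
Fitted log2 fold changes with standard errors of the 6 inhibitors tested, for CompE against DMSO at P0 and at P6 and for P6 against P0 in DMSO, with circles for the fit without and squares for the fit with the replicate block. The panels differ in scale and dashed lines mark a 2-fold change: in the first panel no inhibitor reaches it, with 0.74 for Cdkn1a and -0.70 for Cdkn1b, and in the third panel Cdkn1c lies at -2.42.

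The levels in DMSO libraries were also compared between the ages. No batch holds both ages, so age and batch cannot be told apart. Cdkn1c was the inhibitor that changed most, falling from 119.6 to 246.5 RPM at P0 to 18.4 to 37.0 RPM at P6, with a 5.65-fold ratio of the group means. The log2 fold change was -2.42 ± 0.34 with an adjusted p of 0.000302, and the call held without each of the 14 libraries in turn, with adjusted p values up to 0.00238. By the study's thresholds 7.12% of the 17090 genes were called, and of the inhibitors Cdkn1c alone. At an adjusted p of 0.05 these were 22.5% of genes and 2 inhibitors, Cdkn1c and Cdkn1a.

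Cdkn1a went the other way, from 159.7 to 305.0 RPM at P0 to 357.2 to 427.9 RPM at P6, a log2 fold change of 0.95 ± 0.19 with an adjusted p of 0.00289 that stayed just under 2-fold. Without the P0 DMSO library of replicate 3 it was 1.195, and without the P6 DMSO library of replicate 1 it was 1.04, both past the thresholds. Ranges did not overlap between the ages for these 2 inhibitors, and for 31.1% of genes. Cdkn1b and Cdkn2d had nearly the same level at both ages, with log2 fold changes of 0.03 ± 0.29 and -0.01 ± 0.17. For Cdkn2c, the log2 fold change of 2.06 ± 0.92 rested on at most 48 counts in a library (adjusted p of 0.124).

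The mesenchyme marker sum was higher in part of the P6 libraries, at 897.2 to 4083 RPM in DMSO at P6 and 936.2 to 1158 RPM at P0. Lum made up most of it at P6, with means of 2021 RPM for Lum and 2483 RPM for the sum in DMSO. Of the 8 markers 5 had positive values, and Postn, Col1a1 and Col3a1 were lower at -2.57, -1.57 and -0.61. Only 1 of 8, Lum, passed an adjusted p of 0.05 between the ages. Macrophage markers, of which 7 were listed, summed to 1.73 to 14.7 RPM in P0 DMSO and to 4.03 to 35.1 RPM in P6 DMSO libraries, and 0 of the 6 tested passed. SC markers were lower at P6, with sums of 3995 to 7948 RPM against 6895 to 12260 RPM in DMSO, and 4 of 11 were called as lower and 1 as higher. HC markers summed to 453.8 to 1083 RPM at P6, with 2 of 10 called as lower. Of the 3 neuron markers tested 1 was called as higher, Tubb3, from 1.56 ± 0.507 RPM at P0 to 12.6 ± 6.16 RPM at P6 in DMSO (log2 fold change 3.06, adjusted p of 0.000587). Nefl, the neuron marker with the highest level, was at -0.08 and Snap25 at -0.07, so the list had no common rise. The part of these shifts in the values of Cdkn1c and Cdkn1a was not tested. Without both P6 libraries of replicate 3, the log2 fold change between the ages was -2.41 for Cdkn1c (adjusted p of 0.00188) and 0.95 for Cdkn1a (adjusted p of 0.0101).

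The partners and regulators of the inhibitors were read from lists. Of the 5 D-type cyclins and their kinases, which Ink4 proteins bind, 0 passed an adjusted p of 0.05 at P0, with a list median of -0.13 on the log2 scale beside 0.01 for all genes in the fit. Ccnd3, the D-type cyclin with the highest level of the 3, was at -0.35 (adjusted p of 0.240) and Cdk6 at -0.58 (adjusted p of 0.511). Cdk4, the kinase that Ink4 proteins share with Cdk6, held 278.0 ± 42.5 RPM in DMSO and 267.8 ± 37.6 RPM in CompE. Of the 4 genes for Cdk2 and its E and A cyclins, the main targets of Cip/Kip proteins, 0 passed, with Ccna2 at 0.64 (adjusted p of 0.657) and Cdk2 at -0.21 (adjusted p of 0.687). Ccna2 was scarce, at 1.05 ± 0.569 RPM in DMSO.

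Further downstream, 0 of the 9 retinoblastoma and E2F genes tested passed at P0. The pocket protein gene Rbl2 was at 0.31 (adjusted p of 0.172) and the repressor E2f5 at -0.18 (adjusted p of 0.562), and the list had a median of -0.08. Of 17 proliferation markers 0 passed, with Mcm6, part of the replicative helicase, at -0.33 (adjusted p of 0.423) and the mitotic checkpoint kinase Bub1 at 1.48 (adjusted p of 0.624). Bub1 was scarce, at 0.174 ± 0.172 RPM in DMSO and 0.526 ± 0.453 RPM in CompE. Their summed level was 113.8 to 166.1 RPM in DMSO and 141.2 to 174.1 RPM in CompE, and Mki67, the marker of cycling cells, was at most 0.756 RPM in any P0 library.

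Among regulators, 1 of 19 genes of p53 and its targets passed at P0 as lower. It was Sesn1, a stress-responsive p53 target, with a log2 fold change of -0.72 (adjusted p of 0.0217), and Btg2, an antiproliferative target, was at 0.71 (adjusted p of 0.0720). Cdkn1a is itself a p53 target and was kept out of this list, which had a median of 0.04. Of the 12 TGF-β, Myc and Foxo genes 1 passed as higher, the receptor gene Tgfbr1 at 0.80 (adjusted p of 0.0361), while the ligand gene Tgfb2 was at -0.52 (adjusted p of 0.0529, and 0.0208 with the replicate block). Of the 9 ubiquitin ligase genes that turn over Cip/Kip proteins 0 passed, with Fbxo31 at -0.45 (adjusted p of 0.0945) and Rbx1 at -0.23 (adjusted p of 0.450). Of the 8 Polycomb genes, whose complexes repress the Ink4 locus, 0 passed, with Eed at -0.27 (adjusted p of 0.213) and Cbx7 at 0.79 (adjusted p of 0.432). Cbx7 was scarce, at 0.774 ± 0.294 RPM in DMSO. All 6 Notch targets passed as lower, with a median of -2.91.

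**Figure D4:**
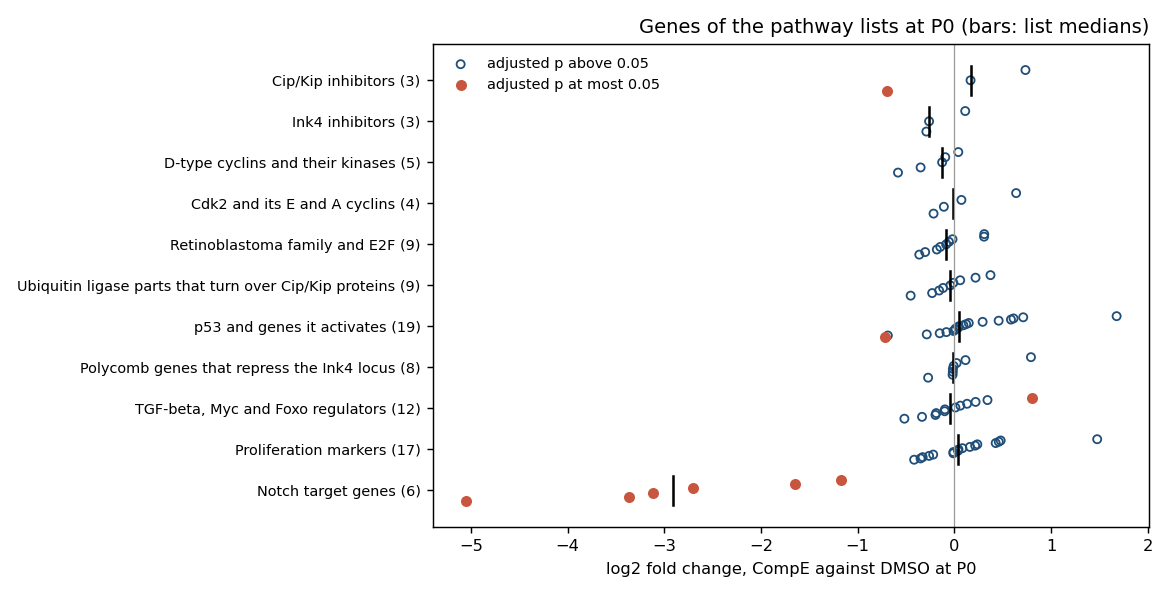
Log2 fold changes of CompE against DMSO at P0 for the inhibitors and the genes of 9 pathway lists, with the number of genes tested in brackets, filled points for an adjusted p of at most 0.05 and bars for list medians. The 6 Notch targets lie between -5.05 and -1.17, and outside them only Cdkn1b, Sesn1 and Tgfbr1 are filled.

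At P6, no gene of these lists passed for the treatment. Outside the Notch targets, the smallest p in each list belonged to Ccnd3 at a log2 fold change of 0.23, Ccna2 at -1.24, Rb1 at 0.31, Cul4a at 0.40, Mdm2 at 0.19, Ezh2 at -0.55, Tgfb2 at -0.43 and Birc5 at -2.09, each with an adjusted p of 1.00. Ccna2 and Birc5 were scarce, at 0.859 ± 0.946 and 1.06 ± 1.002 RPM in P6 DMSO libraries. Between the ages in DMSO, several partners were called beside Cdkn1c, by thresholds that 7.12% of all genes tested passed. Cdk6 was called as lower at P6, from 20.3 ± 7.95 to 4.38 ± 2.42 RPM (log2 fold change -2.18, adjusted p of 0.00699), and was the only one called of the 5 D-type cyclins and their kinases. Of the ubiquitin ligase genes 3 of 9 were called as lower, Skp2, which marks Cdkn1b protein for degradation, at -1.66, its cofactor Cks1b at -1.003 and Dtl at -1.67. At an adjusted p of 0.05 with any fold, 3 of this list passed as lower and 1 as higher, beside 22.5% of all genes. Of the p53 list 4 of 19 were called as lower, Bbc3 at -1.88, Sesn1 at -1.47, Plk2 at -1.37 and Btg2 at -1.02. At an adjusted p of 0.05, 5 of the 19 passed as lower and 1 as higher, and 7 had positive values. Cdkn1a, kept out of this list, was at 0.95 and not called. Of the TGF-β, Myc and Foxo list 1 of 12 was called, Tgfb2 at -1.02, while 4 passed an adjusted p of 0.05 as higher and 2 as lower. Of the 17 proliferation markers 0 were called, and Cdk1 was at -2.84 (adjusted p of 0.0224) and Pcna at 0.64 (adjusted p of 0.0297). None of the Cdk2, retinoblastoma and Polycomb genes was called. E2f6 was at -0.48 (adjusted p of 0.0147), E2f3 at -0.64 (adjusted p of 0.0288), Suz12 at -0.38 (adjusted p of 0.0344), Eed at -0.31 (adjusted p of 0.149), Ccne1 at -0.43 (adjusted p of 0.325) and Cdk2 at -0.19 (adjusted p of 0.465). Of the 6 Notch targets 4 were called as lower, Nrarp at -2.58, Hey1 at -1.08, Hes5 at -5.705 and Hes1 at -1.37, with a list median of -1.22. The medians of the other lists ran from -0.43 for the proliferation markers to 0.01 for the TGF-β, Myc and Foxo genes, against -0.05 over all genes tested.

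Genes with the most similar pattern were sought for the 4 inhibitors with a mean of at least 10 RPM, as Pearson's r over the 14 libraries of log2(RPM + 0.5) with the mean of each age taken out, among 9987 other genes. Cdkn1a was closest to Sowaha (r = 0.95), Lad1 (0.94) and Wwc1 (0.92), and Cdkn1b to Agr3 (0.95), Gnai2 (0.94) and the transcription factor gene Sox6 (0.92). Wwc1 went from 332.1 ± 59.5 to 638.7 ± 75.8 RPM and Agr3 from 174.6 ± 28.5 to 42.1 ± 15.1 RPM between DMSO and CompE at P0. Cdkn1c was closest to Plppr3 (0.89), Ccdc61 (0.89) and Tmem248 (0.88), and Cdkn2d to Tpm4 (0.85), Zbtb25 (0.84) and Xylt2 (0.83). Between the inhibitors, r was -0.66 for Cdkn1a with Cdkn1b and 0.22 for Cdkn1a with Cdkn1c, and between -0.06 and 0.03 for the pairs with Cdkn2d. The libraries share treatments and batches, so these values describe the set and carry no test.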

How the data were processed

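RNA from EGFP-positive SCs was amplified as full-length cDNA (SMART-Seq v4 PLUS, no molecular identifiers). Per the labels, the authors trimmed reads with Trim Galore 0.6.0 and cutadapt 1.15 and mapped them with STAR to GRCm38 (mm10), and deposited raw counts per gene symbol, P0 and P6 in separate tables. The gene models and use of strand are not given in the sources used here. Here, edgeR 4.0.16 in R 4.3.3 was run on these counts (TMM, filterByExpr with a minimum count of 10, glmQLFit and glmQLFTest, Benjamini-Hochberg over all genes), each age alone with treatment as the only term, or all 14 libraries with 4 group means for the interaction and the ages. It was tested on simulated data. DESeq2 1.42.0, other normalization, filters, thresholds, blocks and left-out libraries were the alternatives. P-values measure the spread between libraries of pooled cochleae.

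Same-numbered CompE and DMSO libraries share a batch label. At P0, replicates 3 and 4 of both treatments share batch 3, so the labels do not pair their libraries. Deviations from the group means correlated between same-numbered libraries with r of 0.16 to 0.50 at P0 and 0.26 to 0.62 at P6. Within batch 3, r was 0.36 and 0.16 for same numbers and 0.06 and 0.01 for different numbers. The replicate numbers were used as pairs. Replicates differed beyond sampling noise (chi-square divided by its degrees of freedom was 20.5 or more). For P0 CompE replicate 1, the library with the most counts, it was 83.4 to 103.9 against its group, whose other libraries gave 20.5 to 23.9. For P0 DMSO replicate 1 it was 92.2 to 132, and 33.7 to 74.8 among the others. Without any 1 P0 library, the log2 fold change at P0 was 0.62 to 0.96 for Cdkn1a and -0.81 to -0.62 for Cdkn1b. RPM and RPM per kilobase (union of GENCODE M21 exons, GRCm38) were computed from the counts, and start regions are from RefSeq. The 7 genes and all lists were chosen with earlier results of these data known. From each pathway list, genes called (at most 4, by smallest p) or, where none was called, at most 2 with the smallest p (1 per list for the treatment at P6) were named, besides the leading gene of a marker list. Hes1, Hes5 and Heyl stood as the check of the treatment, and Cdk4, Mki67, Lfng, Atoh1, Neurod1 and Tubb3 were chosen after their values were seen. Intervals and limits from depth cover counting error only.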

Additional observations from a re-analysis of the deposited data

Results flagged for a closer look

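Of 12 sets of 4 libraries examined for a library far from the other 3 (6 inhibitors in 2 groups at P0), 3 held one by Dixon's criterion, where chance gives about 0.6. Cdkn1c reached 246.5 RPM in the P0 DMSO library of replicate 1, a gap of 0.857 of the group's range. Cdkn1c reached 244.6 RPM in the P0 CompE library of replicate 4, a gap of 0.859 of the range. Cdkn2b reached 3.27 RPM (112 counts) in the P0 CompE library of replicate 3, a gap of 0.885 of the range.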

How the results depend on the processing

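No inhibitor was called for CompE against DMSO at either age, or for the interaction, under DESeq2, other normalization, no filter, the newer quasi-likelihood method, all 14 libraries in one fit, the replicate block or any library left out, or at P0 under the batch block, and between the ages Cdkn1c was called under every alternative run. At an adjusted p of 0.05 with any fold, the number of inhibitors passing at P0 was 1, or 2 with the replicate block, and 0 to 1 with a library left out. Between the ages it was 2 at that limit, also with each library left out, and 1 to 2 by the study's thresholds with a library left out. The replicate block changed no other call of an inhibitor. The newer quasi-likelihood method, the looser limit combined with the block or with left-out libraries, and the removal of both P6 libraries of replicate 3 were chosen after seeing the data. No paired fit between the ages was possible, since no batch holds both.

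The number of genes called at P0 was 195, against 443 with DESeq2, 350 with the replicate block, 334 with the batch block, 117 with all 14 libraries in one fit and 80 to 225 with a library left out. Between the ages it was 1216, against 1993 with DESeq2 and 727 with the 7 DMSO libraries alone. The interaction called 0 genes, 33 with DESeq2 and 16 with the replicate block. The causes of these differences were not tested.

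Directions that turned with a library left out were those of small values. At P0, the log2 fold change of Cdkn1c ran from -0.013 to 0.40 and that of Cdkn2b from -0.12 to 0.33, and at P6 that of Cdkn2d from -0.16 to 0.10. In the interaction, Cdkn1b ran from -0.34 to 0.44 and Cdkn2b from -0.11 to 0.81. Between the ages, Cdkn1b ran from -0.13 to 0.25, Cdkn2b from -0.37 to 0.23 and Cdkn2d from -0.15 to 0.0575, with Cdkn2d at 0.0023 with no filter and Cdkn2b at -0.37 without both P6 libraries of replicate 3. The cause was not tested. Depth limits Cdkn2a (no counts), Cdkn2c (at most 48 counts in a library) and Cdkn2b (at most 130).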
